A study of Glycine max with 2 samples.

Results

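6 genes that are commonly used as expression references in soybean were followed in the RNA-Seq values of young shoot tips. They are an actin gene (Glyma18g52780), a ubiquitin gene (Glyma20g27950), the elongation factor 1 genes Glyma02g44460 and Glyma19g07240, an F-box gene (Glyma12g05510) and an ABC transporter gene (Glyma12g02310). They were chosen by their Glyma identifiers and not by their values, although earlier results of these data were known. All 6 were present among the 69145 loci of the tables. Their names are those under which they serve as references. No annotation or sequence keyed to these identifiers was used here, so the names were not checked and no sequences are printed.

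The tissue came from Clark glabrous (CG), a soybean line that carries the dominant P1 glabrous allele and lacks non glandular trichomes, and from Clark standard (CS), the wild type into which P1 was introgressed by repeated backcrossing. Both lines were grown in the greenhouse for about 4 weeks, and no treatment differed between them. RNA of multiple plants was pooled, and there was 1 library per line. No difference between the lines therefore has a replicate check, no p-value is given, and a difference between plants, handling or libraries cannot be told apart from a difference between the lines.

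A reference gene is a transcript assumed to be present at a steady level, against which others are measured in PCR assays. Actin forms the filaments of the cytoskeleton. Ubiquitin is the small protein tag that marks other proteins for degradation, and F-box proteins pick the targets in a class of the ligases that attach it. Elongation factor 1 brings aminoacyl-tRNA to the ribosome and exchanges its bound nucleotide between rounds, and ABC transporters move substrates across membranes with energy from ATP. Actin, ubiquitin and elongation factor 1 genes of plants occur in families with similar copies. The authors let a read align to several models, so the values of these genes can hold reads of their relatives, and their own levels are uncertain to that extent.

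All 6 genes had a higher deposited RPKM in CG than in CS, and none differed by as much as 2-fold. RPKM are alignments scaled to the length of the model and to a total for the library. The paper names mapped reads as this total. The total worked out here from the steps between low RPKM values was instead one of alignments. With the alignments divided by mapped reads instead, an alternative chosen after seeing the data, 4 of the 6 were higher in CG, and ubiquitin and Glyma19g07240 had log2 CG/CS ratios of -0.017 and -0.034. The sizes were uneven. Actin was 1.84-fold higher in CG, the F-box gene 1.42-fold and the elongation factor gene Glyma02g44460 1.36-fold, whereas the ABC transporter gene, ubiquitin and the elongation factor gene Glyma19g07240 were 1.13-fold, 1.10-fold and 1.09-fold higher. In shoot tips of bulk RNA, a difference in the number of cells that express a gene and a difference in RNA per cell cannot be told apart.

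Ubiquitin was the most abundant of the 6 in both libraries, with 469 RPKM in CG and 426 RPKM in CS. The elongation factor gene Glyma19g07240 came next, with 359 RPKM in CG and 329 RPKM in CS. Actin followed with 164 RPKM in CG and 89.1 RPKM in CS. These 3 genes stood well above the others in level per length. Glyma02g44460, the other elongation factor gene, had 28.7 RPKM in CG and 21.1 RPKM in CS. The F-box gene had 18.1 RPKM in CG and 12.8 RPKM in CS. The ABC transporter gene had 16.3 RPKM in CG and 14.5 RPKM in CS. The last pair changed places between the libraries, since the F-box gene was above the ABC transporter gene in CG (1.11 times its RPKM) and below it in CS (0.884 times). The order of the other 4 was the same in both lines, and the highest of the 6 genes was 28.8 times the lowest in CG and 33.3 times the lowest in CS.

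**Figure D1:**
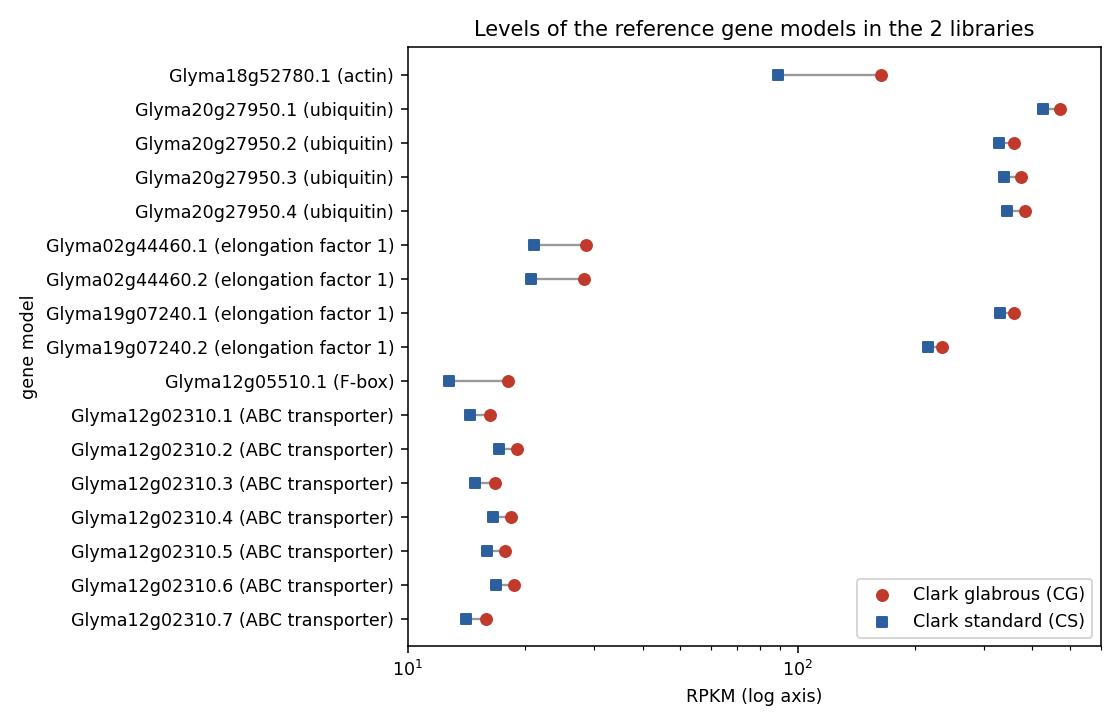
RPKM (log axis) of the 17 models of the 6 reference genes, with a circle for Clark glabrous, a square for Clark standard and a line joining both values of a model. Every circle lies to the right of its square, and the widest gap is that of actin, at 164 RPKM in CG against 89.1 RPKM in CS.

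The loci have 1 to 7 alternative models, and each gene is represented here by its lowest-numbered one. The other models gave the same picture, with all 17 models higher in CG. The 4 ubiquitin models had 359 to 469 RPKM in CG and 328 to 426 RPKM in CS, and their log2 CG/CS ratios lay between 0.13 and 0.15. The 7 models of the ABC transporter gene had 15.9 to 19.0 RPKM in CG and 14.1 to 17.1 RPKM in CS, with log2 ratios between 0.15 and 0.17. The models of Glyma19g07240 differed more in level, at 359 and 235 RPKM in CG and 329 and 216 RPKM in CS, but had log2 ratios of 0.12 in both cases. The models of Glyma02g44460 both had a log2 ratio of 0.44. Models of a locus share sequence and can count the same reads, so they are not independent measurements.

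Ratios were taken as log2 CG/CS after adding a pseudocount of 0.1 RPKM, which moved no ratio of these models by more than 0.0033. The deposited values rest on 147273809 alignments in CG and 152791817 in CS, as worked out from the steps between low RPKM values. At least 3553 alignments stood behind each value of the 6 genes, so that counting error is small for all of them. Actin had a log2 ratio of 0.88, and the exact 95% interval of its ratio without a pseudocount was 0.85 to 0.91. For the F-box gene the ratio was 0.50, with an interval of 0.44 to 0.57. Glyma02g44460 had a ratio of 0.44, with an interval of 0.38 to 0.50. For the ABC transporter gene the ratio was 0.17, with an interval of 0.11 to 0.23. Ubiquitin had a ratio of 0.14, with an interval of 0.13 to 0.15, and Glyma19g07240 one of 0.12, with an interval of 0.10 to 0.14. In this order, actin stood apart from the F-box gene, and Glyma02g44460 from the ABC transporter gene. Within the pair of the F-box gene and Glyma02g44460, and among the lowest 3 genes, the intervals overlapped. The intervals cover counting error only, treat alignments as independent reads, and compare these libraries and not the lines.

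The general shift between the libraries gives these ratios their scale. It was taken over 43753 models whose RPKM averaged at least 1 over both libraries. Their median log2 CG/CS ratio was 0.34, a 1.26-fold higher value in CG, and their quartiles were at -0.05 and 0.69. A higher value in CG was found for 72.7% of these models, beside 6 of the 6 reference genes. A difference of 2-fold or more in either direction was found for 19.5% of the models, beside 0 of the 6 genes. The 6 genes had a median log2 ratio of 0.31, beside 0.34 for all models, and a range of 0.76 from the lowest to the highest. This median falls in the gap between the ABC transporter gene, at 0.17, and Glyma02g44460, at 0.44. No single gene lay as near to 0.34. With 6 genes, neither count was tested against all models.

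**Figure D2:**
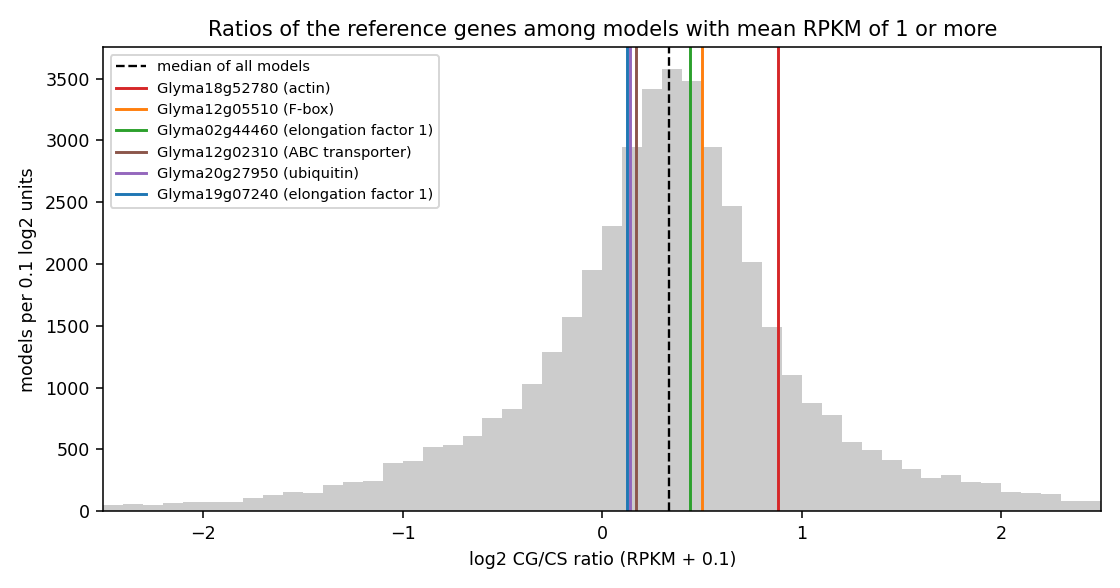
Number of models per 0.1 log2 units (grey bars, models averaging at least 1 RPKM) by log2 CG/CS ratio, with the median of all models as a dashed line at 0.34 and the 6 reference genes as coloured lines. Actin, the F-box gene and Glyma02g44460 lie above the median, while the ABC transporter gene, ubiquitin and Glyma19g07240 lie below it.

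Relative to the shift, the genes divided evenly. Glyma02g44460 was 0.11 above the median on the log2 scale, and 17.2% of all models lay closer. The F-box gene was 0.16 above the median, with 25.9% of models closer. The ABC transporter gene had a difference of -0.17 from the median (26.2% of models closer), ubiquitin one of -0.20 (30.3%) and Glyma19g07240 one of -0.21 (32.7%). Actin was 0.54 above the median, and 63.9% of the models lay closer to the shift than it did. Its ratio exceeded that of 83.0% of the models, whereas Glyma19g07240 exceeded 34.0%. The size of the shift itself moved with the choice of models, to 0.27 with no filter, 0.31 for models averaging at least 10 RPKM and 0.28 with a pseudocount of 1. In these 3 cases the ABC transporter gene and not Glyma02g44460 was the nearest gene, while actin was the farthest and the genes divided 3 and 3 in each of them. The median distance of the 6 genes from the shift at 0.34 was 0.18, against 0.37 for all models. After median-centring, in which CG values were multiplied by 0.792, actin was 1.46-fold, the F-box gene 1.12-fold and Glyma02g44460 1.08-fold the CS value. The ABC transporter gene was then at 0.891, ubiquitin at 0.873 and Glyma19g07240 at 0.863 times the CS value. Thus 3 of the 6 genes were higher in CG once the shift was taken out, beside 50% of all models, a share that median-centring fixes. After centring, 0 of the 6 reached 2-fold, beside 17.8% of all models.

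The shift was not the same at all levels, and the reference genes span these levels. In the 12242 models with a mean of 10 to 100 RPKM the median log2 ratio was 0.32, with 70.2% higher in CG. In the 962 models of 100 RPKM or more it was 0.16, with quartiles at -0.79 and 0.50, and 55.9% were higher in CG. Ubiquitin and Glyma19g07240 belong to this upper band, and their log2 ratios differed from its median by -0.02 and -0.04. Actin belongs to it as well but was 0.72 above its median, and exceeded 82.8% of the band. In the band below, Glyma02g44460 was 0.12 and the F-box gene 0.18 above the median of the band, and the ABC transporter gene had a difference of -0.15. The 3 genes with the smallest ratios therefore did not share a level, since the ABC transporter gene is among the lowest of the 6.

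**Figure D3:**
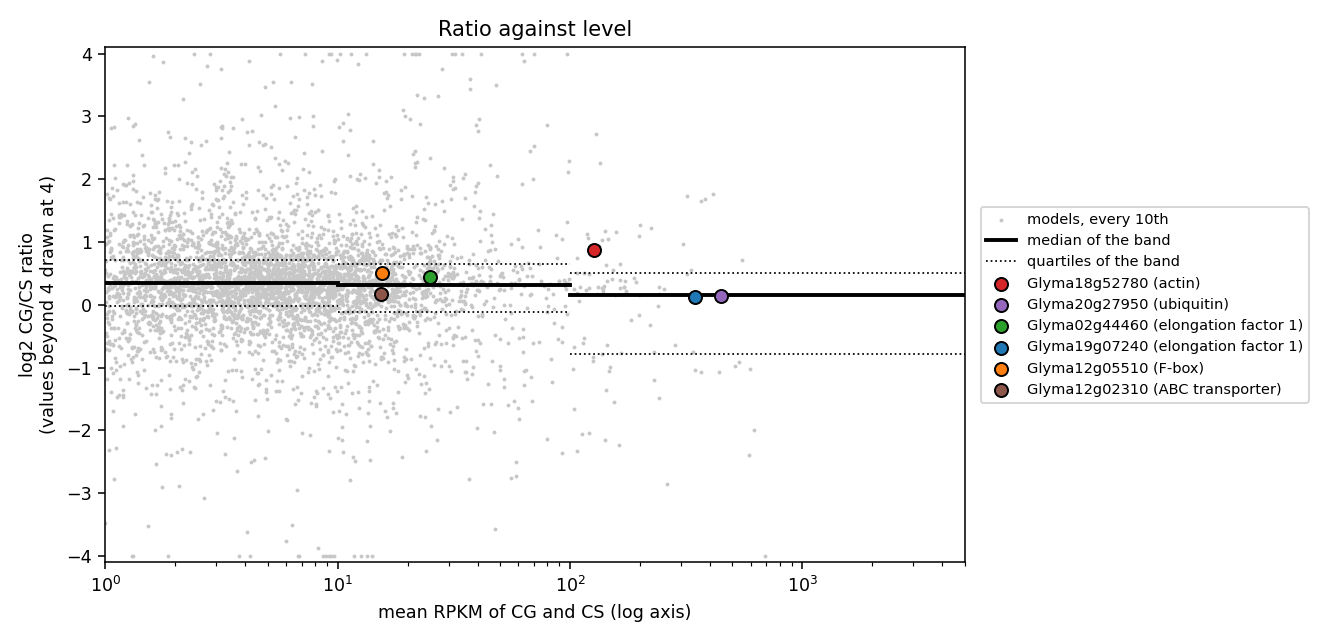
Log2 CG/CS ratio against the mean RPKM of both libraries (log axis), with every 10th model in grey, the 6 reference genes as large points, and the median (solid line) and quartiles (dotted lines) of the models from 1 to 10, 10 to 100 and 100 or more RPKM. Ubiquitin and Glyma19g07240 sit on the median of the highest band, at 0.16, and actin lies above its upper quartile, at 0.50.

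The place of a gene in the order of levels does not depend on any scaling. Actin was at rank 503 of the 78773 models in CG and at rank 1029 in CS. Ubiquitin was at rank 78 in CG and 155 in CS, and Glyma19g07240 at rank 129 in CG and 205 in CS. These 3 abundant genes thus stood nearer the top in CG. For ubiquitin, 104 models were above it in CS and not in CG, and 27 were above it in CG and not in CS. Among the less abundant genes, Glyma02g44460 was at rank 4409 in CG and 5093 in CS, and the F-box gene at rank 7485 in CG and 8993 in CS. The ABC transporter gene alone among the 6 stood lower in CG, at rank 8510 against 7822 in CS, although its RPKM was higher there.

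Levels of the genes relative to each other do not change with such a factor either. Of the 15 pairs, 4 had a log2 ratio between the genes that differed by less than 0.1 between the lines. Pairs drawn from all models were not counted. Whether these genes keep their ratios better than other models do was therefore not tested. Ubiquitin was 1.31 times Glyma19g07240 in CG and 1.29 times in CS, the smallest difference, at 0.02 on the log2 scale. Ubiquitin was 28.8 times the ABC transporter gene in CG and 29.4 times in CS, and Glyma19g07240 was 22.0 times the ABC transporter gene in CG and 22.8 times in CS. Glyma02g44460 was 1.58 times the F-box gene in CG and 1.65 times in CS. These 4 pairs join the genes into the same groups as the overlapping intervals did. Both rest on the same ratios, so this is not a separate check. The elongation factor genes did not keep their ratio, with Glyma02g44460 at 0.0800 times Glyma19g07240 in CG and at 0.0641 times in CS. The 3 pairs that differed by more than 0.5 on the log2 scale all held actin. Actin was 0.457 times Glyma19g07240 in CG and 0.270 times in CS, which is 1.69-fold higher in CG. Beside ubiquitin, actin stood at 0.350 in CG and 0.209 in CS, and beside the ABC transporter gene at 10.1 in CG and 6.16 in CS. Over the 15 pairs the median absolute difference was 0.33.

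A PCR assay or a sequencing comparison that sets 1 of these genes equal in both lines would scale all others by it, so the split of the 43753 models was computed under each choice. With the deposited values, 6073 models were at least 2-fold higher in CG and 2438 at least 2-fold higher in CS. Scaled to actin, 1824 models were at least 2-fold higher in CG and 9618 in CS, and 17.0% of all models were higher in CG. Scaled to Glyma19g07240, the split was 4998 models in CG and 2967 in CS, and 66.0% were higher in CG. Ubiquitin gave nearly the same split, with 4837 models in CG and 3057 in CS, and so did the ABC transporter gene, with 4637 in CG and 3220 in CS. Scaled to Glyma02g44460 or to the F-box gene, the majority turned, with 3172 and 2927 models at least 2-fold higher in CG, against 4818 and 5271 in CS. Each scaling moves all ratios by 1 constant, so these counts restate how far a gene lies from the shift and are not a further comparison. The 2-fold split did not turn at the shift itself, since median-centring gave 3662 models in CG and 4116 in CS.

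The mean log2 ratio of the 6 genes lay 0.04 from the shift at 0.34, nearer than each gene singly, but 0.11 from the shift with no filter, where the ABC transporter gene was nearer at 0.10. The factor on CG that makes their geometric mean equal in both lines was 0.771, against 0.792 for median-centring, a difference of -2.71%. It gave 3468 models at least 2-fold higher in CG and 4352 in CS, against 3662 and 4116 after median-centring. The factors of the single genes ran from 0.543 for actin, a difference of -31.4% from median-centring, to 0.918 for Glyma19g07240, a difference of 15.9%. With actin left out the factor of the other 5 was 0.826, which is 4.33% above median-centring, and the split turned to 3962 models in CG and 3759 in CS. Leaving out any of the others kept more models in CS than in CG, with factors from 0.744 to 0.784.

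**Figure D4:**
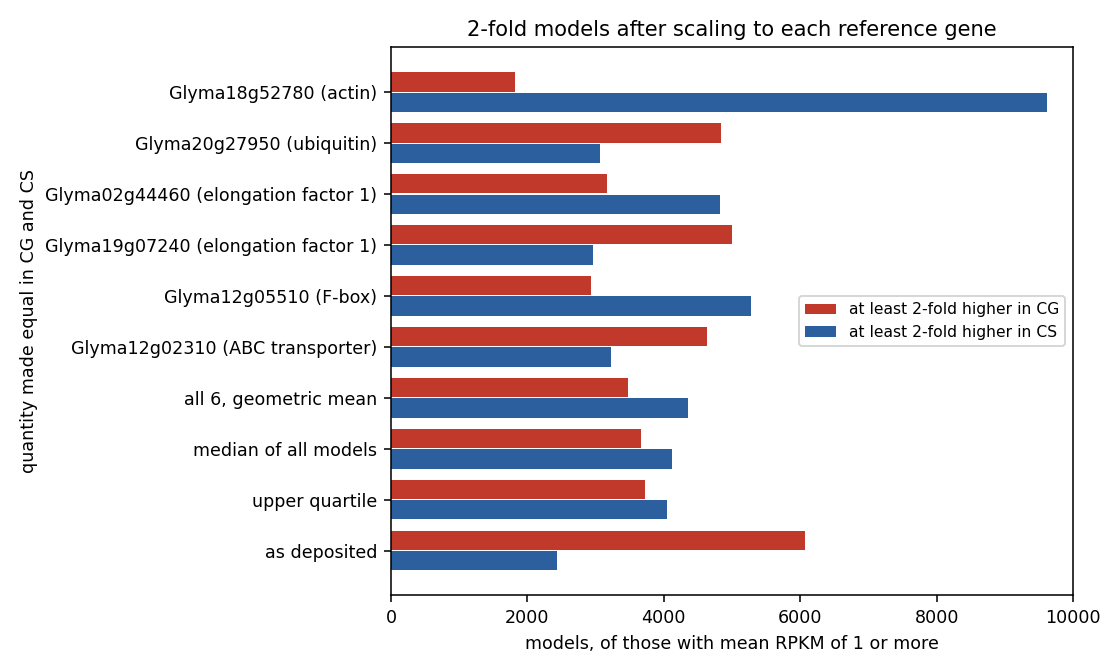
Number of models (of 43753 averaging at least 1 RPKM) that were at least 2-fold higher in CG (red) and in CS (blue) after CG values were scaled so that the quantity named on the left was equal in both lines. Scaling to actin gives 9618 models higher in CS and 1824 in CG, and scaling to Glyma19g07240 gives 4998 in CG and 2967 in CS.

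By their Glyma numbers the genes lie on chromosomes 18, 20, 2, 19 and 12, with the F-box and ABC transporter genes on the same chromosome. Of the 10 loci on either side of each gene, 11 to 16 averaged at least 1 RPKM. Around the F-box gene these neighbours had a median log2 ratio of 0.33. Of them, 12 of 13 were higher in CG, beside 72.7% of all models. Around the ABC transporter gene the median was 0.41, with 10 of 12 higher in CG, and around Glyma02g44460 it was 0.32, with 12 of 16 higher in CG. The neighbours of Glyma19g07240 had a median of 0.29, with 8 of 11 higher in CG. They ran from -1.88 to 1.09, with 1 at least 2-fold higher in CG and 2 at least 2-fold higher in CS. For these 4 genes the median of the surroundings lay near the general shift.

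The surroundings of actin and ubiquitin had lower medians and wider ranges than those of the other genes. Around actin the ratios ran from -2.07 to 4.50 with a median of -0.01, and 4 of 12 neighbours were at least 2-fold higher in CG and 3 at least 2-fold higher in CS. Of all 43753 models, 19.5% differed at least 2-fold in either direction, 6073 of them higher in CG and 2438 in CS. The neighbours 5 and 4 loci before actin had 13.0 and 5.48 RPKM in CG against 0.479 and 0.275 RPKM in CS. The neighbour 8 loci after actin was nearest to it in level, with 145 RPKM in CG against 37.3 RPKM in CS. Its log2 ratio was 1.96. The locus directly before actin had a ratio of 0.42. Around ubiquitin the ratios ran from -3.66 to 1.72 with a median of -0.11, and 6 of 12 neighbours were higher in CG. Of the 12, 1 was at least 2-fold higher in CG and 2 at least 2-fold higher in CS, as around Glyma19g07240. Actin, which lay farthest from the shift, was thus above the median of its neighbours, and ubiquitin was above that of its own. The same held for the F-box gene (0.50 against 0.33) and Glyma02g44460 (0.44 against 0.32). It did not hold for the ABC transporter gene (0.17 against 0.41) and Glyma19g07240 (0.12 against 0.29). Most neighbours of actin and ubiquitin had far lower levels than actin and ubiquitin themselves. Whether the surroundings bear on the ratio of any of these genes was not tested.

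**Figure D5:**
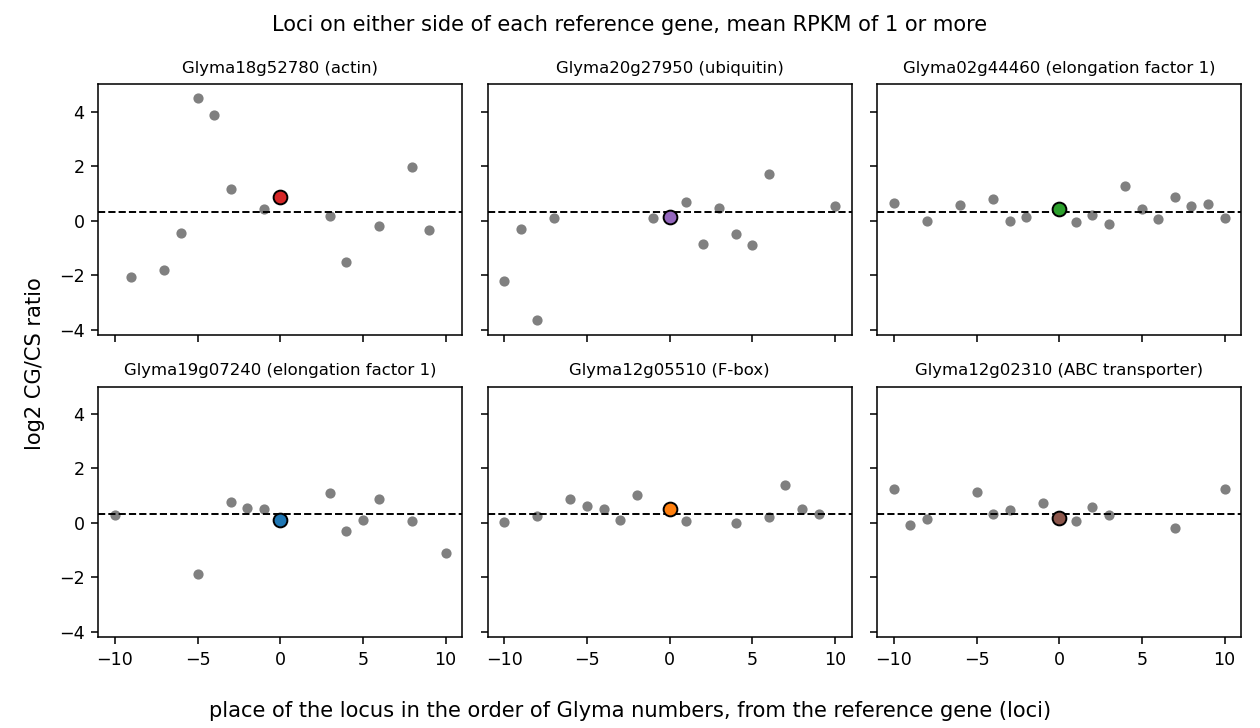
Log2 CG/CS ratio of the expressed loci (grey, averaging at least 1 RPKM) within 10 places of each reference gene (coloured, at place 0) in the order of Glyma numbers, with the median of all models as a dashed line at 0.34. Ratios are spread from -2.07 to 4.50 around actin and stay between -0.01 and 1.39 around the F-box gene.

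With a single library per line, the likeness of another gene to these is only a matter of its level in both. The F-box gene had the closest match, Glyma05g25980, with 18.2 RPKM in CG and 12.8 RPKM in CS, and 654 loci lay within 0.25 log2 units of it. The closest locus to actin was Glyma03g31460, with 157 RPKM in CG and 87.8 RPKM in CS, and 25 loci lay within that distance. For ubiquitin and Glyma19g07240, 1 and 2 loci did, because few loci are as abundant. What these loci encode was not looked up here.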

How the data were processed

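RNA-Seq libraries of shoot tips were analysed, 1 from Clark glabrous and 1 from Clark standard. The authors mapped the reads with Bowtie (version not given in the sources used here) to the cDNA models (Glyma models) predicted from the Williams 82 genome, allowing mismatches and several alignments per read, and deposited an RPKM value for each of 78773 models per library. Use of strand is not given in the sources used here. Groups were taken from the genotype labels. The 6 genes and the comparisons were chosen with earlier results of these data known. The rule for named genes was the 6 loci, their models, and for each the locus nearest in both levels, of which 2 are named. Log2 CG/CS ratios used a pseudocount of 0.1 RPKM and the deposited scaling, and models averaging at least 1 RPKM formed the background. A scaling was applied by shifting all log2 ratios. RPKM values are not counts, and with 1 library per line no test was run. The alignments behind a value were taken as the smallest whole numbers giving the RPKM of both libraries, of which the true ones may be multiples, and exact (Clopper-Pearson) 95% intervals were taken from them. The computations were tested on simulated data. Alternatives were pseudocounts of 1 and 0.01, other models of a locus, summed models, other filters, median-centring and upper quartile scaling, and a scaling to mapped reads added after seeing the data. Of the loci, 0 matched the RefSeq gene table used here (Glycine_max_v4.0), so no lists of related genes were made and the tissue was not checked by markers. DGE tag libraries were not used here. The tools were SciPy 1.17.1 for the intervals, pandas 2.3.3 and NumPy 2.4.6 for the tables and matplotlib 3.10.9 for the figures, under Python 3.11.15.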

Additional observations from a re-analysis of the deposited data

How the results depend on the processing

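Each line has 1 library, so none was left out, and no paired analysis was possible because there are no replicates to pair. For the main results 41 alternative values were computed, and 30 of them kept to limits set by counting error or, for counts of genes, by a factor of 1.5. The other 11 came from a scaling or from leaving out a gene. Some of the 30 were fixed in advance, since a scaling cannot change the range of ratios among the genes, 0.76. The 30 also include the count of 4 genes higher in CG with mapped reads, which kept to the factor of 1.5. The count of genes higher in CG, 6 with the deposited scaling, was 3 after median-centring and 3 after upper quartile scaling. The median log2 CG/CS ratio of the 6 genes, 0.31, was then -0.030 and -0.019, that of ubiquitin -0.20 and -0.18, that of Glyma19g07240 -0.21 and -0.20, and that of the ABC transporter gene Glyma12g02310 -0.17 and -0.15. The factor that equalizes the geometric mean, 0.771, became 0.973 and 0.965 under these scalings. A scaling to mapped reads, added after seeing the data, gave a count of 4, a median of 0.15, a factor of 0.859, and ratios of -0.017 for ubiquitin and -0.034 for Glyma19g07240. The factor was 0.826 without actin, 0.744 without Glyma19g07240 and 0.746 without ubiquitin. Models at least 2-fold higher in CG numbered 6073 as deposited and 3662 after median-centring, and those at least 2-fold higher in CS 2438 and 4116. The median ratio of all models, 0.34, was 0.28 with a pseudocount of 1, 0.27 with no filter, 0.31 for models averaging at least 10 RPKM and 0.18 with mapped reads, and the share higher in CG, 72.7%, was 68.3% with no filter, 69.2% at 10 RPKM and 63.7% with mapped reads. No gene reached 2-fold under any of the 7 alternatives.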
